A study of Mus musculus with 10 samples.

Results

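In K7M2 mouse osteosarcoma cells, 49 genes were expressed that were strongly reduced, and in 2 cases not detected, in all 4 lines derived from these cells. They were chosen from the counts themselves. A gene was taken when its mean level in the parental cells was 5 CPM (the count of a gene scaled to a fixed library total) or more and at least 4-fold above its mean in each derived line, with 0.5 CPM added to both means. The 49 genes are 0.501% of the 9789 genes that reach 5 CPM in parental cells, out of 41743 gene names. All 49 matched a single locus of the GENCODE M21 annotation of GRCm38, 47 as protein-coding genes and 2, Lncpint and Mirt1, as long noncoding RNAs. Because the parental contrast chose them, their levels against parental cells are given as a description, with no test.

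Poly-A RNA was sequenced from 5 cell lines, with 2 libraries of each. The parental line K7M2 derives from a mouse osteosarcoma, carries an unedited ezrin gene and received no construct. In the other 4 lines the ezrin gene (Ezr) had been disrupted by CRISPR/Cas9, and every one of these lines then received a vector by stable transfection. The empty-vector line (col3E) received the vector alone, the wild-type line (col3WT) a wild-type ezrin cDNA, the T567A line (col3A) a cDNA whose threonine at residue T567 is alanine, and the T567D line (col3D) a cDNA in which it is aspartate. Ezrin is a linker between membrane proteins and the actin cortex, and its phosphorylation at T567 stabilizes the open, linking conformation. No line was treated. The tag col3 in the titles of all 4 derived lines is taken to mean 1 common clone of disrupted cells, which the labels do not state. Each construct was studied in 1 stable line, so the effects of disruption, cloning, vector and culture on a level shared by these lines cannot be told apart. Whether separate cultures were used for a line's 2 libraries is not stated, and the p-values here therefore cover library-to-library spread alone, which may be technical.

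The genes have varied functions. They include matrix proteins and proteases that osteosarcoma cells secrete and remodel, surface receptors and channels, innate immune and cytokine receptors, regulators of actin and of vesicle fusion, enzymes, and factors that act on chromatin. Promoters rich in CpG dinucleotides are typical of broadly expressed genes, and promoters poor in them of genes with restricted expression. Levels of RNA do not show whether a gene is still present in the genome, and in bulk RNA fewer cells of a type and less RNA per cell cannot be told apart.

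Library totals lay between 14679424 counts (T567A replicate 2) and 18230763 (T567A replicate 3), so that 3 counts, taken as the detection floor, equal 0.165 to 0.204 CPM; floors and count intervals cover counting error only. Mitochondrially encoded genes took 0.844 to 1.9% of the counts. Ezr stood at 159 and 162 CPM in parental libraries, then 72.5 and 73.1 with the empty vector, 235 and 238 with wild-type ezrin, 244 and 249 with T567A and 207 and 185 with T567D. The osteoblast markers were present only in part. Col1a1 was at a mean of 1767 CPM, Sparc at 1645 CPM and Runx2 at 36.1 CPM in parental cells, whereas Sp7, Bglap, Ibsp, Dmp1 and Dlx5, which mark committed osteoblasts, were under 0.1 CPM. The summed level of the 18 osteoblast markers was 7070 to 7187 CPM in parental and 4509 to 5666 CPM in derived libraries. None of the 49 genes is on that list, and the part of this shift in their levels was not tested.

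Summed over the 49 genes, parental libraries reached 1885 and 1852 CPM and the 8 derived libraries 125 to 189 CPM. The lower parental library exceeded every derived library for 49 of 49 genes, which the choice of the genes fixes. The depth of the loss was uneven. In their highest derived line, 6 genes stayed under 1% of the parental mean, 12 were at 1 to under 5%, 9 at 5 to under 10% and 22 at 10% or more. The median gene was at 2.76% of its parental level in the empty-vector line, 6.58% in the wild-type line, 4.09% in the T567A line and 6.01% in the T567D line. The corresponding medians over all 9789 genes were 101%, 102%, 99.3% and 101%. Taken alone, the empty-vector line had 101 genes past the 4-fold limit, the wild-type line 74, the T567A line 105 and the T567D line 67. The 49 shared genes are 48.5%, 66.2%, 46.7% and 73.1% of these lists. All 4 lists use the same parental libraries.

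**Figure D1:**
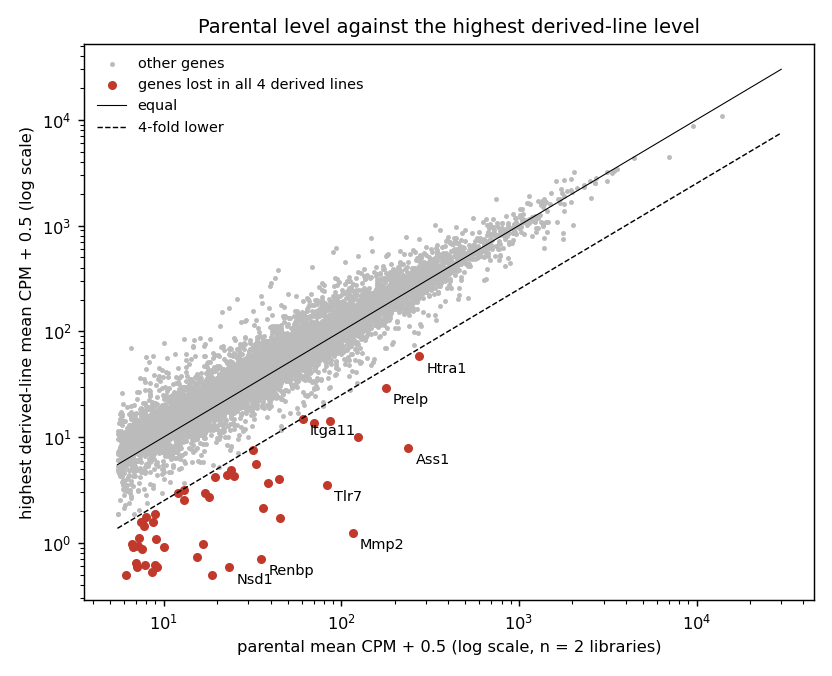
Mean CPM + 0.5 in parental cells (x axis, log scale) against the mean CPM + 0.5 of the derived line in which the gene is highest (y axis, log scale), 1 point per gene with a parental mean of 5 CPM or more. The 49 genes lie at least 4-fold below the diagonal because the rule placed them there.

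Genes at the edges of the rule differed little from genes left out. Itga11 (4.04-fold in the line where it is highest), Fstl3 (4.11-fold) and Kirrel3 (4.14-fold) lay just inside the fold limit, and Kctd17 (4.00-fold, a little under the limit before rounding), Abca2 (3.98-fold) and Tent5b (3.93-fold) just outside it. Zfp422 at 5.64 CPM, Islr at 6.12 CPM and Stk32c at 6.24 CPM lay just inside the level limit, and Zbtb4 at 4.93 CPM, Ckmt1 at 4.19 CPM and Dhtkd1 at 4.05 CPM just outside it.

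The start regions of 6 of the genes are printed because they show how unlike each other these promoters are, from dense in CpG to nearly free of it. Each is the 250 bases before the annotated start in the RefSeq table for GRCm38.p6, read 5′ to 3′ on the strand of the gene, with CpG dinucleotides in capitals. Zfp422 and 3830403N18Rik had 0 counts in all derived libraries, Renbp had 15 counts over the 8 derived libraries, Stra6 and Islr are neighbours, and Fmnl1 was called in 5 of the 6 comparisons between derived lines. The windows are chr6:116628702-116628951 on the minus strand for Zfp422, chrX:56136322-56136571 on the plus strand for 3830403N18Rik, chrX:73930851-73931100 on the minus strand for Renbp, chr9:58128838-58129087 on the plus strand for Stra6 (the first of 4 windows listed for it), chr9:58158555-58158804 on the minus strand for Islr and chr11:103170888-103171137 on the plus strand for Fmnl1.
Zfp422: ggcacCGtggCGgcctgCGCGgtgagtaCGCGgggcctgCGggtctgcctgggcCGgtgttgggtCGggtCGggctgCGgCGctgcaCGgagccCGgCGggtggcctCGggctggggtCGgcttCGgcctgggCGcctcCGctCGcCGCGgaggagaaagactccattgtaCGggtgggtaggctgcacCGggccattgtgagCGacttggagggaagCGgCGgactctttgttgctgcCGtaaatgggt
3830403N18Rik: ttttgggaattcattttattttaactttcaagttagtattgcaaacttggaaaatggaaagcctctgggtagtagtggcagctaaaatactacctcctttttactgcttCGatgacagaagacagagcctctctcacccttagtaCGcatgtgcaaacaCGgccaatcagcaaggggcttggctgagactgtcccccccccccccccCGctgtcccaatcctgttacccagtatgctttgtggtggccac
Renbp: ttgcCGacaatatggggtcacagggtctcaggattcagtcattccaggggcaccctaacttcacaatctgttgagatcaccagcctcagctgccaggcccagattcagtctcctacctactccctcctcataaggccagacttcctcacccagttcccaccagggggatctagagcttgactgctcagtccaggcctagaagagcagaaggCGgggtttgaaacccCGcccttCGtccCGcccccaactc
Stra6: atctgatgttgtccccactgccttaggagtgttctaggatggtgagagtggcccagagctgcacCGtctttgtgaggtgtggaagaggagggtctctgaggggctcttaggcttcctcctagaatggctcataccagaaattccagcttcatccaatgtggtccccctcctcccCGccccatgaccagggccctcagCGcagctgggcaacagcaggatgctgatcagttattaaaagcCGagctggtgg
Islr: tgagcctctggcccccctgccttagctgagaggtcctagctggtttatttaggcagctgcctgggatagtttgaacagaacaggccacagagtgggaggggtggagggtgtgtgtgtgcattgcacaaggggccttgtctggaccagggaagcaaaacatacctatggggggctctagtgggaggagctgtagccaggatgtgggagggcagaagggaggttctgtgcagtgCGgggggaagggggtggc
Fmnl1: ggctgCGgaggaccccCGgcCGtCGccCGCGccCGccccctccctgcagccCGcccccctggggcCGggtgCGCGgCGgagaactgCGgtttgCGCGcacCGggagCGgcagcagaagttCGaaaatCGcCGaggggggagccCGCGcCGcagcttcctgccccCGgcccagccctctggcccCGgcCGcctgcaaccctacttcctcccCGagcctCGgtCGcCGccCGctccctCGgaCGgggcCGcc
Zfp422 and Fmnl1 carry 29 and 34 CpG in 250 bases, with an observed over expected CpG ratio of 0.96 and 0.89. By the GENCODE M21 positions the Zfp422 window lies wholly inside the gene, so the RefSeq and GENCODE starts differ there. That of Fmnl1 ends shortly past the GENCODE start. The window of Islr holds 1 CpG, and those of 3830403N18Rik and Stra6 hold 4 and that of Renbp 5.

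Promoter windows were found for 39 of the 49 genes, and not for Mmp2, Tlr7, Syt7, Prex2, Tnfrsf26, Nsd1, F2rl1, Kirrel3, Ntn1 and Tst. The median window of these 39 held 9 CpG, with an observed over expected ratio of 0.41, against 17 CpG and 0.77 in the 7849 genes of 5 CPM or more with a window. A ratio of 0.6 or more was found in 17 of 39 windows (43.6%) and in 74.7% of the 7849. Median GC content was close, at 59.6% and 60.4%. Of the motifs searched on both strands, GGGCGG, the core of a GC box, was in 15 of 39 windows (38.5%) against 62.3%, TATAAA in 3 (7.69%) against 5.86%, TGACTCA, an AP-1 site, in 1 (2.56%) against 2.74%, and CACGTG, an E-box, in 4 (10.3%) against 9.1%. GGGCGG contains a CpG, so its share is not separate from the CpG content. These shares describe the windows, were not tested, and say nothing about methylation or binding, which were not measured.

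Genes with near-complete loss came from several functions. Zfp422, a zinc-finger protein (ENSMUSG00000059878.12, chr6:116624016-116628999), had 5.64 and 5.63 CPM in the 2 parental libraries and 0 counts in all 8 derived libraries, so that it was at least 255-fold lower when 3 counts over these 8 libraries are taken as the floor. 3830403N18Rik (ENSMUSG00000031125.2, chrX:56136572-56153498) had 18.7 and 17.9 CPM in parental libraries and likewise 0 counts in the other 8, at least 828-fold lower on the same floor. No derived library of either gene approached the parental range.

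Nsd1 is a histone methyltransferase that places methyl groups on lysine 36 of histone H3 (chr13:55209782-55318325). It had 21.1 and 24.9 CPM in the parental libraries, 0.119 and 0.0583 CPM in the wild-type libraries and 0 counts in the other 6. The 3 counts in all correspond to a pooled ratio of 1039, with an exact 95% interval of 354 to 5051. Sox13, an SRY-box transcription factor (chr1:133382303-133424377), had 7.11 and 6.09 CPM in parental libraries, 0.176 CPM in T567D replicate 1 and 0 in the other 7 derived libraries, a ratio of 299 (101 to 1459). Selenbp2, a selenium-binding protein, had 8.41 and 7.8 CPM in parental libraries and 1 count each in an empty-vector and a T567D library, a ratio of 550 (151 to 4562). Its near-identical copy Selenbp1 was at or under 0.114 CPM in every library.

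Other deep losses kept a few counts. Renbp, the renin-binding protein that interconverts N-acetylglucosamine and N-acetylmannosamine, was at 36.6 and 33 CPM in parental and between 0 and 0.297 CPM in derived libraries. Kcnk5, a potassium channel of the tandem-pore family, had 8.07 and 8.82 CPM in parental libraries and 5 counts over the derived ones, 4 of them in the T567A line. Adgrl1, a latrophilin adhesion receptor, had 13.7 and 16.2 CPM in parental libraries and 13 counts over the derived ones. Bhlhb9 was in the same range, with 7.56 and 9.85 CPM in parental libraries and 8 counts in all derived libraries together. None of these 4 genes exceeded 0.351 CPM in any derived library.

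**Figure D2:**
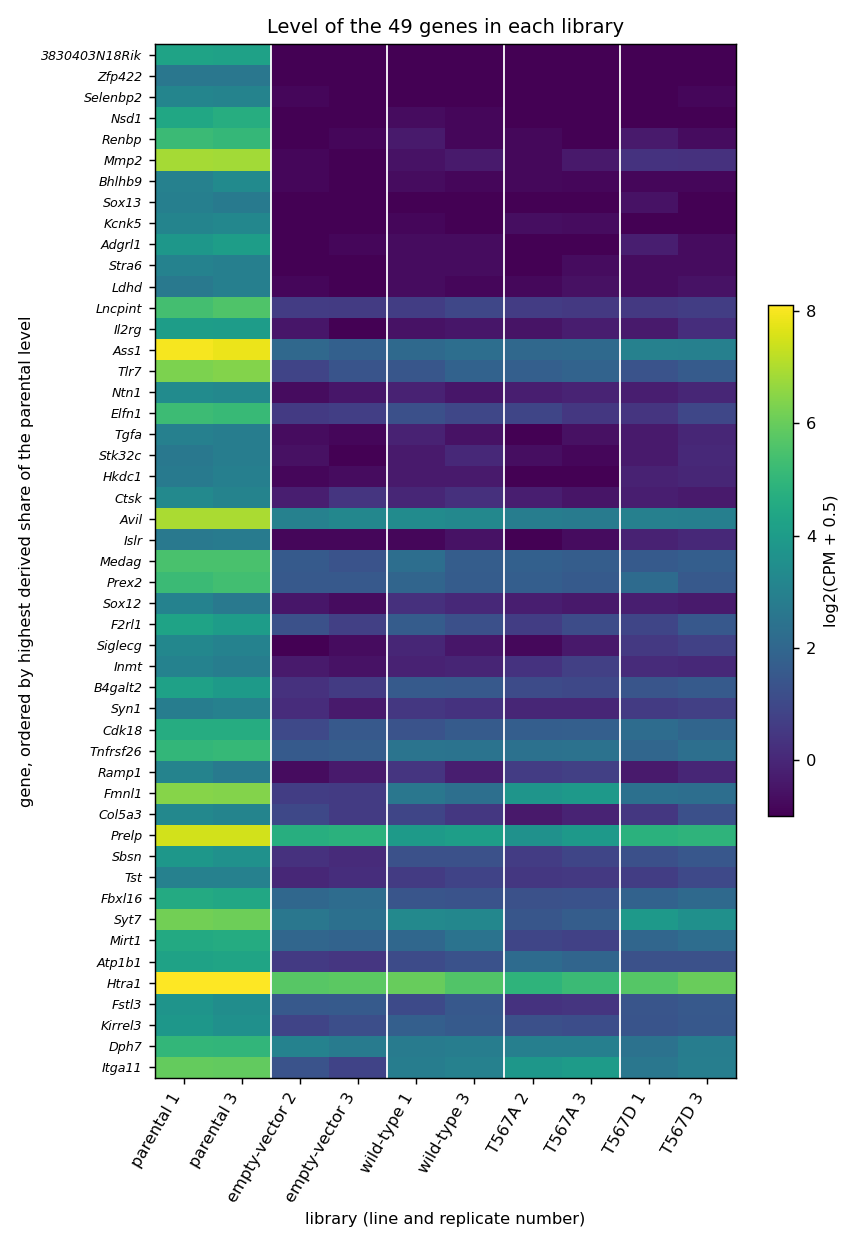
Level of each of the 49 genes, as log2(CPM + 0.5), in each of the 10 libraries, with genes in rows and libraries in columns grouped by line. The 2 parental columns are high throughout because the rule selected for it, and among derived columns the rows range from no counts to 21.0% of the parental level for Htra1, the most abundant gene by CPM, and above for a few genes such as Itga11 in the T567A line.

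Among secreted and matrix genes, Htra1, a secreted serine protease (ENSMUSG00000006205.13, chr7:130936111-130985660), was the most abundant by CPM. It had 274 and 273 CPM in parental libraries, 52.5 and 56.0 with the empty vector, 62.1 and 49.5 with wild-type ezrin, 29.7 and 36.1 with T567A and 51.2 and 63.8 with T567D. The T567A libraries were lowest and did not overlap those of any other line. The Htra1 gene overlaps Fgfr2 on the opposite strand, at 39.6 CPM in parental cells and 49.9 to 59.3 CPM in the derived line means. Whether counting used the strand is not given in the sources used here, which leaves the derived counts of Htra1 uncertain. Htra1 fell in T567A against the empty-vector line by 0.69 on the log2 scale (SE 0.13, adjusted p = 0.00085), against wild type by 0.71 (SE 0.13, adjusted p = 0.00096) and against T567D by 0.75 (SE 0.13, adjusted p = 0.0005), all from the quasi-likelihood fit of edgeR adjusted by the Benjamini-Hochberg method. Prelp, a small leucine-rich proteoglycan that anchors collagen to basement membranes (chr1:133910304-133921414), had 178 and 178 CPM in parental libraries, then 25.5 and 27.3 with the empty vector, 14.9 and 16.8 with wild-type ezrin, 11.7 and 14.3 with T567A and 27.5 and 29.7 with T567D. The wild-type and T567A libraries were low, and the empty-vector and T567D libraries high without overlap with them. Prelp was higher in T567D than in wild type by 0.86 on the log2 scale (SE 0.10, edgeR adjusted p = 2.8e-05) and lower in wild type against the empty-vector line (-0.76, SE 0.10, adjusted p = 1.5e-05).

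Mmp2, the gelatinase that cleaves denatured collagen and type IV collagen (ENSMUSG00000031740.8, chr8:92827291-92853420), combined a high parental level with a deep loss. It had 117 and 114 CPM in parental libraries, then 0.0566 and 0 with the empty vector, 0.178 and 0.291 with wild-type ezrin, 0.0681 and 0.274 with T567A and 0.761 and 0.715 with T567D. Its pooled level was 391-fold lower in derived libraries (95% counting interval 287 to 549). The T567D libraries were the highest of the derived ones, with 25 counts against 1 in the empty-vector, 8 in the wild-type and 6 in the T567A line. Mmp2 was called lower in T567A than in T567D (log2 fold change -1.93, SE 0.53, edgeR adjusted p = 0.0055), but not without T567A replicate 2 (-1.36, adjusted p = 0.079).

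Other secreted genes were expressed at lower levels. Col5a3, a chain of fibrillar type V collagen, had 8.92 and 8.08 CPM in parental libraries and was lowest in T567A at 0.272 and 0.439 CPM, against 0.874 to 1.85 CPM in the other 6 derived libraries. It fell in T567A against T567D by 1.84 on the log2 scale (SE 0.47, edgeR adjusted p = 0.0031). That call did not hold without T567D replicate 3 (adjusted p = 0.1). Against the empty-vector line (-1.71, edgeR adjusted p = 0.0054) it did not hold without empty-vector replicate 2 (0.068), and against wild type (-1.55, 0.015) not without wild-type replicate 1 (0.15) or T567A replicate 2 (0.09). Fstl3, a follistatin-like binder of activins, had 12.7 and 10.4 CPM in parental libraries, then 2.38 and 2.5 with the empty vector, 1.54 and 2.33 with wild-type ezrin, 0.749 and 0.823 with T567A and 2.11 and 2.38 with T567D. It fell in T567A against the empty-vector line (-1.59, SE 0.30, edgeR adjusted p = 0.0002) and against wild type (-1.24, SE 0.32, adjusted p = 0.0039), the latter not without wild-type replicate 3 (adjusted p = 0.082).

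Sbsn, suprabasin, moved the other way from the empty-vector line: it had 13.5 and 11.6 CPM in parental and 0.736 and 0.58 in empty-vector libraries, against 1.9 and 1.87 with wild-type ezrin, 1.02 and 1.37 with T567A and 1.82 and 2.26 with T567D. It rose in wild type against the empty-vector line by 1.48 (SE 0.32, edgeR adjusted p = 0.0028) and in T567D by 1.60 (SE 0.31, adjusted p = 0.0012). Ctsk, the collagen-degrading cathepsin K of osteoclasts, Ntn1, the guidance cue netrin-1, and Tgfa, a ligand of the epidermal growth factor receptor, had parental means between 7.08 and 9.52 CPM and no derived library above 0.813 CPM. None of these 3 genes was called in any comparison among derived lines.

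Of the 30 other tested genes on a list of matrix proteases and their inhibitors, 12 rose and 12 fell in the empty-vector line relative to parental cells, 12 and 10 with wild-type ezrin, 14 and 10 with T567A and 13 and 11 with T567D (edgeR, adjusted p under 0.05). Over all 12595 tested genes, 54.6% were called in the empty-vector line (27.4% higher, 27.2% lower), 56.2% in wild type (27.7% higher, 28.5% lower), 62.1% in T567A (31.4% higher, 30.7% lower) and 55.4% in T567D (27.1% higher, 28.2% lower). The 26 other collagen chains tested split into 9 higher and 9 lower, 10 and 7, 7 and 10, and 12 and 5, in the same order of lines. Of 6 other small leucine-rich proteoglycans, 5 fell and 1 rose in the empty-vector line, 2 fell and 1 rose in wild type, 2 fell and 3 rose in T567A, and 1 fell and 1 rose in T567D. The 1 that rose in the empty-vector line did not pass without parental replicate 1, parental replicate 3 or empty-vector replicate 3, when 0 rose.

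Itga11, the collagen-binding integrin alpha-11 chain of fibroblasts and osteoblast-lineage cells (ENSMUSG00000032243.8, chr9:62677826-62783982), was the least reduced of the 49 genes in its highest line. It had 60.9 and 59.2 CPM in parental libraries, then 2.04 and 1.28 with the empty vector, 6.71 and 7.4 with wild-type ezrin, 13.5 and 15.5 with T567A and 5.56 and 6.85 with T567D. The empty-vector libraries were lowest, the T567A libraries highest, and the wild-type and T567D libraries overlapped between them. Itga11 rose in wild type against the empty-vector line by 2.06 on the log2 scale (SE 0.20, edgeR adjusted p = 4.4e-07), in T567A by 3.15 (SE 0.18, adjusted p = 7.4e-12) and in T567D by 1.88 (SE 0.21, adjusted p = 2e-06). It was higher in T567A than in wild type by 1.09 (SE 0.13, edgeR adjusted p = 1.5e-06) and than in T567D by 1.27 (SE 0.14, adjusted p = 2e-07). Of the 57 other integrins and cadherins tested, 25 rose and 18 fell in the empty-vector line relative to parental cells, 24 and 19 with wild-type ezrin, 26 and 21 with T567A and 27 and 19 with T567D, where 27.1 to 31.4% of all genes rose and 27.2 to 30.7% fell.

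Atp1b1, the beta-1 subunit of the sodium-potassium pump, was likewise lowest with the empty vector and highest in T567A. It had 18.5 and 19.4 CPM in parental libraries, then 0.962 and 0.871 with the empty vector, 1.6 and 1.92 with wild-type ezrin, 4.09 and 3.4 with T567A and 1.87 and 1.91 with T567D. It was higher in T567A than in the empty-vector line by 2.03 (SE 0.24, edgeR adjusted p = 5.8e-07), than in wild type by 1.12 (SE 0.21, adjusted p = 0.00022) and than in T567D by 1.02 (SE 0.21, adjusted p = 0.00043). Its gene overlaps Nme7 on the opposite strand, which stood at 21.5 to 28.1 CPM in the line means, and whether counting used the strand is not given in the sources used here. Ramp1, which pairs with the calcitonin receptor-like receptor, had 7.9 and 6.09 CPM in parental libraries, 1.02 and 1.15 in T567A and 0.113 and 0.29 in empty-vector libraries. It rose in T567A against the empty-vector line by 2.43 (SE 0.54, edgeR adjusted p = 0.00089).

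The remaining surface genes differed less among derived lines. Elfn1, a leucine-rich repeat synaptic adhesion protein, had 37.4 and 34.4 CPM in parental and 0.82 to 1.84 CPM in derived libraries, and F2rl1, the protease-activated receptor 2, had 19.1 and 15.9 CPM in parental and 1.09 to 2.61 CPM in derived libraries. Neither was called in any of the 6 comparisons. Stra6, the receptor for retinol-binding protein, had 7.62 and 7.06 CPM in parental libraries and 10 counts over the 8 derived ones. Kirrel3, an immunoglobulin-family adhesion protein, was called once, higher in wild type against the empty-vector line (0.75, SE 0.24, edgeR adjusted p = 0.042), and not when any 1 library of these lines was left out (adjusted p of 0.058 to 0.32).

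**Figure D3:**
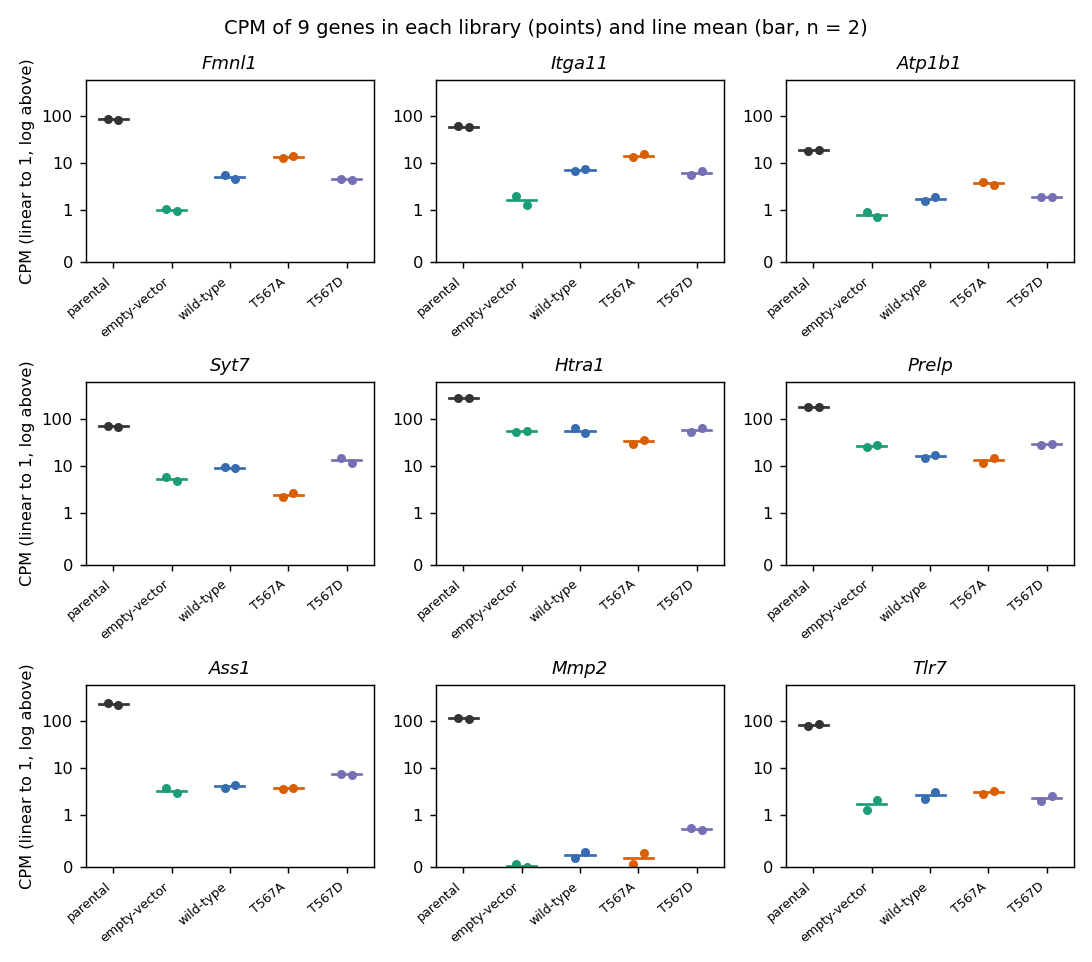
CPM of 9 of the genes in each of the 10 libraries (points) with the mean of each line as a bar (n = 2), on an axis that is linear up to 1 CPM and logarithmic above. The parental points lie above all others, and among derived lines Fmnl1 and Itga11 are highest in T567A, while Syt7, Htra1 and Prelp are lowest there.

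Of the immune receptors, Tlr7, the endosomal sensor of single-stranded RNA (ENSMUSG00000044583.13, chrX:167304929-167330558), was the most abundant. It had 78.9 and 85.7 CPM in parental libraries, then 1.3 and 2.09 with the empty vector, 2.2 and 3.15 with wild-type ezrin, 2.86 and 3.24 with T567A and 1.99 and 2.56 with T567D. It was called higher in T567A than in the empty-vector line (0.88, SE 0.25, edgeR adjusted p = 0.006), but not without empty-vector replicate 2 (0.56, adjusted p = 0.12). Il2rg, the common gamma chain of several interleukin receptors, had 16.3 and 15.9 CPM in parental libraries and 0 to 0.655 CPM in the derived ones.

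Siglecg, a sialic acid-binding inhibitory receptor, was close to the floor in all derived lines but T567D. It had 8.86 and 7.68 CPM in parental libraries, 0.937 and 1.19 in T567D, and 0 to 0.475 in the other 6. The T567D line had 36 counts, against 2 in the empty-vector, 12 in the wild-type and 6 in the T567A line. The call of T567A below T567D had a log2 fold change of -2.46 (SE 0.56, edgeR adjusted p = 0.0013). Tnfrsf26, a receptor of the tumour necrosis factor family, had 31.9 and 33.7 CPM in parental, 2.49 and 2.73 in empty-vector and 3.51 to 5.1 CPM in the other derived libraries. It rose in wild type against the empty-vector line by 0.94 (SE 0.18, edgeR adjusted p = 0.00094). Its neighbours of the same family were not reduced: Tnfrsf22 had 56.5 CPM in parental cells and 54.0 to 76.0 CPM in the means of the derived lines, and Tnfrsf23 had 85.0 CPM and 106 to 160 CPM.

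These receptors are typical of leukocytes, so myeloid markers were read in the same libraries. Over 21 such markers the summed level was 1321 to 1327 CPM in parental and 1445 to 1755 CPM in derived libraries. Most of it was Csf1r, the receptor of colony-stimulating factor 1, at a mean of 1148 CPM in parental cells and 1367 to 1597 CPM in the derived lines. Adgre1, C1qa, C1qb and C1qc, which define macrophages, had 0 counts in all 10 libraries, and Ptprc, the pan-leukocyte antigen, had 8 counts in all. Itgb2 was at 128 CPM in parental cells and 37.0 to 50.8 CPM in the derived lines. Of 66 other cytokine, chemokine and receptor genes tested, 30 rose and 14 fell in the empty-vector line, 27 and 13 with wild-type ezrin, 39 and 14 with T567A and 31 and 14 with T567D (edgeR against parental cells). Of all tested genes 27.1 to 31.4% rose and 27.2 to 30.7% fell in these 4 comparisons.

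Among regulators of actin and vesicles, Fmnl1, a formin that nucleates and elongates actin filaments (ENSMUSG00000055805.15, chr11:103171107-103198901), had the largest fitted difference between derived lines among genes with over 3 counts in both lines. It had 86.6 and 85.5 CPM in parental libraries, then 1.08 and 0.987 with the empty vector, 5.64 and 4.55 with wild-type ezrin, 12.9 and 14.3 with T567A and 4.68 and 4.41 with T567D. The empty-vector libraries were lowest and the T567A libraries highest, without overlap with any other line. Fmnl1 rose against the empty-vector line by 2.27 in wild type (SE 0.21, edgeR adjusted p = 2.7e-07), by 3.74 in T567A (SE 0.18, adjusted p = 4e-13) and by 2.11 in T567D (SE 0.22, adjusted p = 1.1e-06). It was higher in T567A than in wild type by 1.47 (SE 0.13, edgeR adjusted p = 8.7e-09) and than in T567D by 1.63 (SE 0.13, adjusted p = 2.2e-09). Even in T567A its mean was 15.8% of the parental mean.

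Syt7, the calcium sensor synaptotagmin-7 of slow exocytosis and lysosome fusion (chr19:10389090-10453180), had the opposite order for T567A. It had 71.5 and 68.1 CPM in parental libraries, then 5.66 and 4.64 with the empty vector, 9.2 and 8.86 with wild-type ezrin, 2.18 and 2.69 with T567A and 14.5 and 11.4 with T567D. The 4 derived lines did not overlap, with T567A lowest and T567D highest. Syt7 fell in T567A against T567D by 2.35 (SE 0.17, edgeR adjusted p = 4.1e-10), against wild type by 1.82 (SE 0.18, adjusted p = 6.6e-08) and against the empty-vector line by 1.04 (SE 0.20, adjusted p = 0.0002). It was called higher in T567D than in wild type (0.53, SE 0.13, edgeR adjusted p = 0.043), a call that did not hold without parental replicate 1 or 3 (adjusted p = 0.061 for each), wild-type replicate 1 (0.2) or 3 (0.34), or T567D replicate 1 (0.51).

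Avil, an actin-binding protein of the villin family (chr10:127000709-127020994), had 124 and 123 CPM in parental and 6.36 to 9.97 CPM in derived libraries. Avil overlaps Tsfm on the opposite strand, at 35.9 CPM in wild type and 27.3 CPM in T567A, which leaves its derived counts uncertain. Its call of T567A below wild type (-0.48, SE 0.12, edgeR adjusted p = 0.0042) did not hold without wild-type replicate 1 (adjusted p = 0.057). Prex2, an exchange factor for Rac, had 36.2 and 40.2 CPM in parental and 2.38 to 3.98 CPM in derived libraries and was called in no comparison. Cdk18, a cyclin-dependent kinase, had 24.4 and 24.5 CPM in parental libraries and 1.53 to 4.1 CPM in derived ones. Syn1, the synaptic vesicle protein synapsin-1, had 6.77 and 7.4 CPM in parental and 0.29 to 1.13 CPM in derived libraries. It overlaps Araf and Timp1, which leaves its counts uncertain.

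Of the enzymes, Ass1, argininosuccinate synthase, which makes the precursor of arginine from citrulline and aspartate (ENSMUSG00000076441.9, chr2:31470207-31520672), had the highest parental level of the 49 genes per length, at 92.2 RPKM (read counts scaled by gene length and depth). It had 249 and 227 CPM in parental libraries, then 3.74 and 2.96 with the empty vector, 3.86 and 4.37 with wild-type ezrin, 3.68 and 3.84 with T567A and 7.55 and 7.27 with T567D. The T567D libraries were higher than the 6 other derived libraries, which lay between 2.96 and 4.37 CPM. Ass1 rose in T567D against the empty-vector line by 1.12 (SE 0.15, edgeR adjusted p = 3.5e-05) and was lower in T567A than in T567D (-0.93, SE 0.15, adjusted p = 4.7e-05). The call of T567D above wild type (0.85, SE 0.15, edgeR adjusted p = 0.0035) did not hold without wild-type replicate 1 (adjusted p = 0.074).

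Of 7 other genes of arginine metabolism tested, 2 rose and 3 fell in the empty-vector, wild-type and T567D lines and 3 rose and 3 fell in T567A (edgeR against parental cells). The empty-vector count of 2 became 1 when either parental or either empty-vector library was left out. Of 7 other genes of sialic acid metabolism, to which Renbp belongs, 4, 3, 4 and 3 rose in empty-vector, wild-type, T567A and T567D cells respectively. None of them fell but for 2 in T567A, and without parental replicate 1 the list's count of lower genes in that line, Renbp included, was 1 in place of 3. In the empty-vector line that count was 2 in place of 1 without either T567A library. The shares over all tested genes were 27.1 to 31.4% higher and 27.2 to 30.7% lower.

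Of the remaining enzymes, B4galt2, a galactosyltransferase of the Golgi, had 18.2 and 15.2 CPM in parental libraries, then 0.736 and 0.987 with the empty vector, 2.49 and 2.39 with wild-type ezrin, 1.63 and 1.48 with T567A and 2.17 and 2.5 with T567D. It rose in wild type against the empty-vector line by 1.47 (SE 0.28, edgeR adjusted p = 0.001) and in T567D by 1.41 (SE 0.28, adjusted p = 0.0015). It overlaps Slc6a9 on the opposite strand, at 52.1 to 78.5 CPM in the line means. Dph7, which acts in the synthesis of diphthamide on elongation factor 2, was evenly reduced, with 31.7 and 31.2 CPM in parental and 4.92 to 7.7 CPM in derived libraries. Inmt, a methyltransferase for indole amines, Hkdc1, a hexokinase domain protein, Ldhd, the mitochondrial D-lactate dehydrogenase, and Tst, the sulphurtransferase rhodanese, had parental means of 6.52 to 7.42 CPM. Hkdc1 had 0 counts in T567A, 3 in the empty-vector, 10 in the wild-type and 15 in the T567D line.

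The chromatin and noncoding genes split by depth of loss. Beside Nsd1, Zfp422 and Sox13, the SRY-box factor Sox12 had 7.68 and 5.86 CPM in parental and 0.116 to 0.712 CPM in derived libraries. Lncpint, a p53-regulated long noncoding RNA (chr6:31082565-31220488), had 41.3 and 48.3 CPM in parental libraries and 0.932 to 1.4 CPM in all 8 derived libraries, and was called in no comparison among them. Mirt1, a long noncoding RNA (chr19:53443230-53464796), had 22.8 and 23.8 CPM in parental libraries, then 3.51 and 3.25 with the empty vector, 3.62 and 5.07 with wild-type ezrin, 1.36 and 1.21 with T567A and 3.51 and 4.29 with T567D. T567A was lowest without overlap, and Mirt1 fell there against wild type by 1.71 (SE 0.24, edgeR adjusted p = 6.9e-06) and against T567D by 1.56 (SE 0.24, adjusted p = 2.3e-05). Of 7 other methyltransferases of lysine 36 of histone H3, 1 rose in each line, and 1, 2, 1 and 3 fell in empty-vector, wild-type, T567A and T567D cells respectively (edgeR against parental cells, with the same shares of all genes as above). With Nsd1 counted, the 2 lower genes of the empty-vector line became 1 without parental replicate 1 or either empty-vector library, and the 4 of the T567D line became 2 without T567D replicate 3. The 1 higher gene became 2 in wild type and T567D without parental replicate 3 or either T567A library, and in T567A without T567A replicate 3.

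Of the genes outside these groups, Medag, an adipogenesis-associated protein, had 44.6 and 43.8 CPM in parental and 2.03 to 4.33 CPM in derived libraries. Fbxl16, an F-box protein, had 22.9 and 21.5 CPM in parental libraries, then 3.62 and 4.12 with the empty vector, 2.14 and 1.98 with wild-type ezrin, 1.91 and 1.97 with T567A and 3.16 and 3.81 with T567D. It was higher in the empty-vector and T567D lines, and fell in wild type against the empty-vector line by 0.93 (SE 0.20, edgeR adjusted p = 0.0026).

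The derived lines differ in which construct they carry. The rule did not use differences between these lines, but it set an upper limit on the mean of each. A gene above that limit in any derived line was left out, so the comparisons among these lines are not free of the choice. They were tested across all 12595 genes that passed the filter on low counts. All 49 genes passed it, 18 of them only through the parental libraries, and 31 had 10 or more counts in at least 2 derived libraries. In wild type against the empty-vector line 9 genes rose and 2 fell, 22.4% of the 49. Of all tested genes 15.6% were called, 8.25% higher and 7.36% lower. In T567D against the empty-vector line 15 rose and 0 fell, 30.6% against 17.8% of all genes (9.43% higher, 8.34% lower). That count was 9 without empty-vector replicate 3 and 9 without T567D replicate 3. In T567A against the empty-vector line 10 rose and 7 fell, 34.7% against 46.4% of all genes (23.7% higher, 22.7% lower).

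Between the lines with ezrin constructs, 4 rose and 7 fell in T567A against wild type, 22.4% against 39.6% of all genes (20.4% higher, 19.1% lower). In T567D against wild type Syt7, Ass1 and Prelp rose and 0 fell, 6.12% against 1.34% of all genes (0.818% higher, 0.524% lower), and without wild-type replicate 1 the count was 1. In T567A against T567D 5 rose and 16 fell, 42.9% against 44.1% of all genes (22.5% higher, 21.6% lower). The 18 genes that passed the filter only through the parental libraries had few counts to be called on in any of these comparisons. Those of them that were called, such as Kcnk5 and Adgrl1, are in the counts above. All tested genes are therefore not a like set for the 49. The shares are printed side by side as a description, and the differences between them were not tested.

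By mean CPM the empty-vector line was the lowest of the derived lines for 27 of the 49 genes, T567A for 15, T567D for 1 and wild type for 0, and for 6 genes lines tied at 0 counts. T567D was the highest for 24, wild type for 13, T567A for 7 and the empty-vector line for 3, with ties for Zfp422 and 3830403N18Rik. These orders carry no test, and they were not counted over all genes, so no background share stands beside them. For genes with few counts they rest on single reads. Across the 6 comparisons 30 genes were called at least once and 19 never. Calls over several comparisons were not counted for all tested genes, so no background share stands beside this number or the calls per gene below. In single comparisons 1.34 to 46.4% of all tested genes were called. The 30 include genes that passed the filter only through the parental libraries. Among these, Kcnk5 was called in 2 comparisons, and each call was lost under 12 alternative settings. Adgrl1 was called in 1, on 8 counts in T567D against 0 in T567A, and lost that call under 5. Syt7 was called in 6, Fmnl1, Itga11 and Atp1b1 in 5, and Prelp and Sbsn in 4. Without empty-vector replicate 2 or 3, Atp1b1 lost 2 of its 5 calls, and without wild-type replicate 1 or 3, Sbsn lost 2 of its 4. For the 40 genes with at least 1 count in every derived line, the highest derived mean was 2.97 times the lowest in the median gene, against 1.24 for other genes, a ratio that low counts widen.

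**Figure D4:**
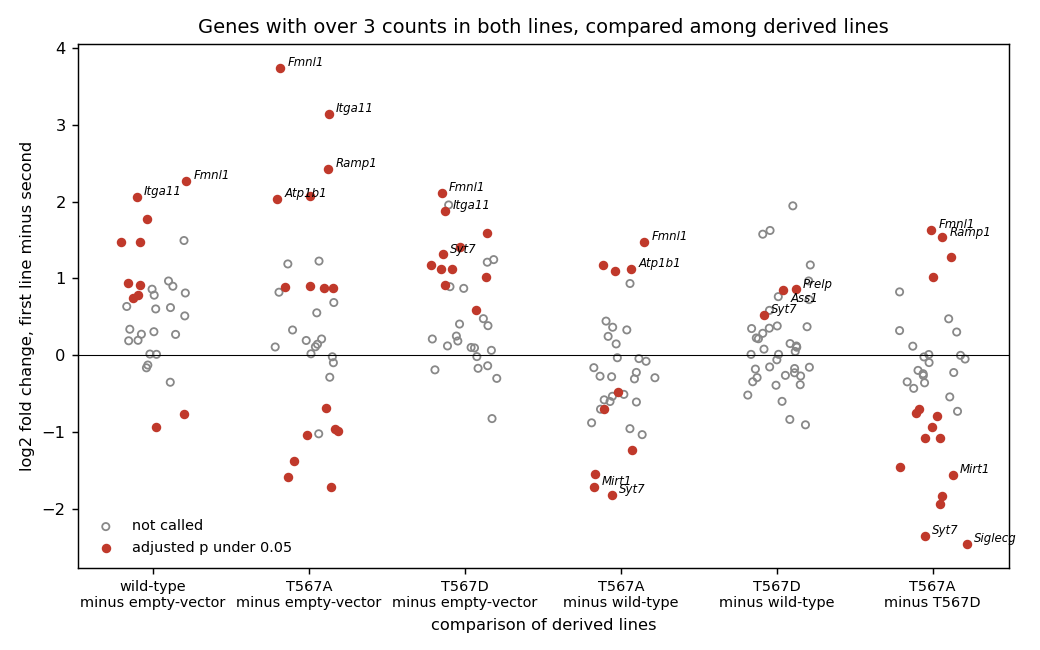
Log2 fold change (first line minus second) of those of the 49 genes with more than 3 counts in both lines, for each of the 6 comparisons of derived lines. Filled points passed an adjusted p of 0.05 in edgeR, open points did not, and horizontal spread within a comparison is only for display. Fmnl1 and Itga11 stand highest in T567A minus empty vector, at 3.74 and 3.15, and Syt7 is at -2.35 in T567A minus T567D.

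The genes were spread over the genome, with 6 on chromosome 1, 6 on chromosome X, 5 each on chromosomes 7 and 9, 4 on chromosome 6 and none on chromosomes 12, 16, 18 and Y. Chromosome X held 12.2% of the 49 genes and 3.03% of the genes of 5 CPM or more. Its 6 genes were Tlr7, Renbp, 3830403N18Rik, Il2rg, Bhlhb9 and Syn1. Other genes of that chromosome were lower as well, by far less. Over 287 of them the median log2 ratio to parental cells was -0.74 in the empty-vector, -0.63 in the wild-type, -0.59 in the T567A and -0.54 in the T567D line, against 0.04, 0.04, 0.00 and 0.03 over 9345 autosomal genes. With the 6 left out, X-linked genes took 2.87 and 2.90% of parental counts and 1.88 to 2.13% of those of derived libraries. Xist, the RNA of X inactivation, was at 381 and 482 CPM in parental and 557 to 879 CPM in derived libraries. The number of X chromosomes was not measured, and the part of this shift in the 6 losses was not tested.

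**Figure D5:**
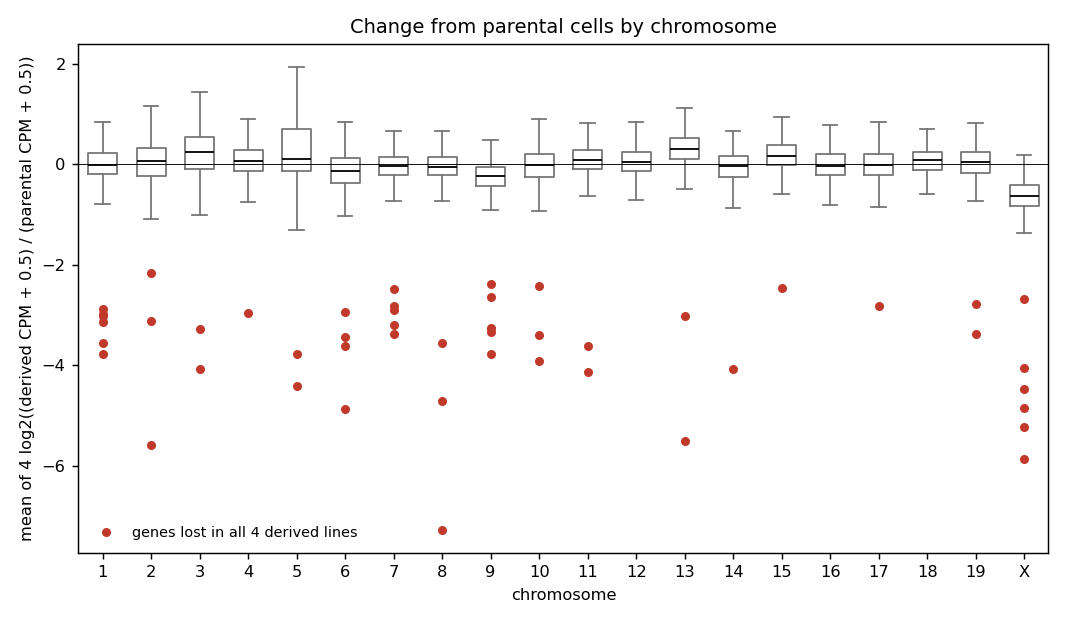
Log2 ratio of derived to parental CPM (0.5 added to both), averaged over the 4 derived lines, by chromosome. Boxes give the median and quartiles of the other genes of 5 CPM or more, whiskers reach the farthest gene within the usual limit of box lengths, and red points are the 49 genes. The box of chromosome X lies below 0 and lower than the autosomes, and its 6 red points lie far below that box.

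Only 1 pair of the genes lies side by side with no other gene of 5 CPM or more between them. Stra6 and Islr, a secreted immunoglobulin-domain and leucine-rich repeat protein, lie 2.27 kb apart on chromosome 9 and are transcribed in opposite directions. Islr had 5.87 and 6.37 CPM in parental libraries, 0.41 and 0.536 in T567D and 0 to 0.175 in the other 6. Stra6 did not share the T567D level, at 0.117 and 0.119 CPM. On chromosome 1, Cdk18, Sox13 and Prelp lie within 2 Mb, with 6 expressed genes between Cdk18 and Sox13 and 2 between Sox13 and Prelp.

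Most genes next to the 49 were not similarly low. Among the 96 other genes that are the nearest of 5 CPM or more on either side, the median log2 ratio to parental cells was -0.16, -0.24, -0.18 and -0.21 in empty-vector, wild-type, T567A and T567D cells respectively. It was 0.02, 0.03, -0.01 and 0.02 for the 9633 genes of 5 CPM or more outside the 49, a set that includes the 96. In all 4 lines 8 of the 96 (8.33%) were over 2-fold lower, against 1.6% of the 9633. These were Klhdc8a beside Cdk18, Palm beside Fstl3, Zmynd19 and Mrpl41 on the 2 sides of Dph7, Sema7a beside Stra6, and Timp1, Rtl8b and Foxo4 on chromosome X. They were chosen for that fold after their values were seen. Chromosome X held 12.2% of the 49 genes and 3.03% of the genes of 5 CPM or more, so X-linked genes take a larger share of the 96 than of the 9633. Other X-linked genes were lower as a whole, with median log2 ratios of -0.74 to -0.54. Neither the medians nor the shares of neighbours were adjusted for this. Zmynd19 had 253 and 260 CPM in parental and 62.1 to 76.1 CPM in derived libraries, so that Dph7 and the genes flanking it were low together.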

How the data were processed

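Poly-A RNA was sequenced on a DNBSEQ platform after a dUTP strand-marking preparation, per the labels' protocols. The authors deposited raw counts per gene name and RPKM values for each of the 10 libraries, and GRCm38 was their build, per the submitters' processing notes. Neither the aligner and counting tool nor the use of strand in counting is given in the sources used here. Counts of overlapping and antisense genes are therefore uncertain, and 25 of the 49 genes overlap another annotated gene (9 of them one at 1 CPM or more). Groups came from the sample labels. No files of a line held identical counts, and chi-square values between the 2 libraries of each line, divided by their degrees of freedom, were 2.44 to 8.45.

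The 49 genes and the gene lists were chosen with earlier results of these data known. CPM is the count over the library total. Comparisons among derived lines used edgeR 4.0.16 in R 4.3.3 (filterByExpr with a minimum count of 10 and total of 15, TMM, 1 robust quasi-likelihood fit of 5 group means over 10 libraries, 5 residual degrees of freedom). Calls required a Benjamini-Hochberg adjusted p under 0.05 over 12595 genes in the two-sided test. Fitted folds are not given where a line had 3 counts or fewer. Pooled ratios are counts per total over 2 parental and 8 derived libraries, with exact 95% binomial intervals. The fit was checked on simulated counts, with changes set only in genes above a mean of 5 CPM over all libraries. The check does not cover the low counts that many of the 49 genes had in derived lines.

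Genes were named by rule: Ezr, the 12 with the highest parental CPM, those with 3 counts or fewer over the derived libraries, up to 6 called per comparison with at least 1 CPM in the higher line, no overlap and the largest change, those on a gene list, those at the limits of the rule, and neighbours. Others were named by role group. Alternatives were other scalings, filters and thresholds, DESeq2 1.42.0, limma 3.58.1 on the deposited RPKM values as log2 with 1 or 0.1 added, the replicate number as a block and leaving out each library. The list counts under these settings were added after the data were seen. Promoter windows come from RefSeq, GRCm38.p6, and 32 of the 39 windows run into the start of a GENCODE transcript of the gene.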

Additional observations from a re-analysis of the deposited data

How the results depend on the processing

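The number of genes meeting the rule was 42 to 73 under 6 other settings, and leaving out 1 library gave 48 to 51. It was 23 at 8-fold, 29 at a parental minimum of 10 CPM and 18 when the limits were applied to the deposited RPKM values, which are scaled by length. All 49 were found again with TMM-scaled totals (54 genes), and 46 of them without parental replicate 1, where Fstl3, Itga11 and Kirrel3 dropped out. Leaving out 1 library gave 8 to 11 called genes for wild type minus empty vector, 14 to 17 for T567A minus empty vector, 9 to 15 for T567D minus empty vector, 9 to 12 for T567A minus wild type, 1 to 3 for T567D minus wild type and 15 to 21 for T567A minus T567D. For T567D minus empty vector the count of 15 became 9 at an adjusted p under 0.01, and for T567D minus wild type the count of 3 became 5 with no filter; the cause was not tested. With the replicate number as a replicate block, which leaves 3 residual degrees of freedom, the counts were 10, 15, 10, 12, 3 and 18 in the same order. Over 14 pairs of same-numbered libraries, deviations from the line means correlated between -0.10 and 0.07. With 2 libraries a line, line pairs that share both numbers give the same value for each, so the 14 are not all separate. These values do not show whether same-numbered libraries were prepared together.

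The 78 calls of a gene in a comparison gave 1550 values under the alternatives, of which 1374 were past the threshold, 176 were not and 0 turned sign. Of the calls, 46 held under every alternative run and 32 were lost under at least 1, with 21 lost at an adjusted p under 0.01, 17 in DESeq2, 15 in limma on log2(RPKM + 1) and 13 under the block. With 2 libraries a line, small differences between genes of a few counts were not detectable at this depth. Levels of these lines say nothing of other clones or of protein.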
